A study of Caenorhabditis elegans with 3 samples.

Results

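The 8 genes described here encode the DREAM complex of Caenorhabditis elegans: lin-54, lin-9, lin-52, lin-53, lin-37, lin-35, efl-1 and dpl-1. They were taken as a list of names, all 8 of which matched 1 gene each among 19973 protein-coding genes of the nuclear chromosomes (Ensembl release 115, WBcel235). The sites assigned to them were the reproducible binding regions of the nuclear receptor NHR-25 on the ce11 build whose summit lay between 1000 bp upstream of the first transcript start and the end of the gene. This gene window held a summit in 7 of the 8 genes, and 20 of the 4548 summits of the list in all. DREAM brings an E2F and DP dimer and an RB-like pocket protein together with the MuvB core at promoters, and represses genes of the cell cycle and, in worms, germline genes in somatic cells. Several of its subunits were found as synthetic multivulva class B genes, whose loss together with a class A gene turns epidermal cells to a vulval fate. The question of the data is where NHR-25, a receptor of the FTZ-F1/SF-1 family with roles in the epidermis and vulva, was found at the genes of this complex.

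Tagged NHR-25 was immunoprecipitated from chromatin of whole L2 larvae of both sexes, and the recovered DNA was sequenced. The strain was OP33, with the unc-119(ed3) mutation on chromosome III and the integrated transgene wgIs33, which targets nhr-25. A note given with replicate 3 alone describes a GFP-FLAG tag at the C-terminus of NHR-25, and the description of all 3 samples names the target eGFP-nhr-25. All 3 samples are biological replicates of this 1 group, the larval age is not known beyond the stage, and no untreated, untagged or mutant sample was analysed here. Larvae were pooled whole, so the cells in which a site was occupied cannot be told. Replicates 1 and 2 are labelled with CGC as source of the worms and with a fragment size range, and replicate 3 with another source and with sonication.

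Each replicate came with a list of 30000 regions ranked by a signal, background included, and the authors' optimal list of 4548 regions was thresholded for reproducibility between replicates. The lists hold no read counts, so the depth of the libraries is unknown. The scaling of the signal is not stated either, so each value below is the authors' signal within 1 list, and replicates are set side by side by rank, with rank 1 the highest. A replicate was said to support a site when 1 of its 4548 regions of highest signal overlapped it by at least 1 bp. Member sites had a median signal of 229, against 182 for the 4524 nuclear summits. Of the member sites 9 lie in a single region of lin-35, and over the remaining 11 the median was 130, below that of all nuclear summits. Upstream of lin-54, lin-53, lin-9 and efl-1 the replicates gave similar ranks. Upstream of lin-35 replicate 3, and at lin-52 replicate 2, ranked the site outside its strongest 4548. Inside lin-35, dpl-1 and efl-1 a different replicate in each had the best rank, and values there are given for each replicate.

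The sequence around 4 of the summits is shown here because they are the leading sites of genes of the complex with different roles, and because 3 of them share a stretch of letters. Each window is 300 bp long on the plus strand of the RefSeq sequence of the ce11 assembly (WBcel235), with the summit in its middle. Capitals mark every match, on either strand, to 1 of the motifs searched: TTTGAA (the core of the cell cycle genes homology region, known as a LIN-54 binding element), the E2F-type forms TTTCCCGC, TTTCGCGC, TTTGCCGC and TTTGGCGC, the nuclear receptor half-site AGGTCA and its extended form TCAAGGTCA, which contains it, the GAGA repeat GAGAGA, the E-box CACGTG, and the motifs GACGCA (frequent at summits of this list) and TGGAGCGC. The last was added after these sequences had been seen. The windows are chrIV:13240558-13240857 for lin-54, chrIII:8904140-8904439 for lin-9, chrV:16965695-16965994 for efl-1 and chrII:9170196-9170495 for dpl-1.
lin-54: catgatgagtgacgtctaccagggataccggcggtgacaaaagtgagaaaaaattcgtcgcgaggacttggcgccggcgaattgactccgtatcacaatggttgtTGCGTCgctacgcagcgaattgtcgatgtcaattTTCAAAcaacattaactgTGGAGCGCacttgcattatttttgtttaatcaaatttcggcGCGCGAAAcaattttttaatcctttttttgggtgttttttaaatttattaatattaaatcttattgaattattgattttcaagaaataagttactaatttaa
lin-9: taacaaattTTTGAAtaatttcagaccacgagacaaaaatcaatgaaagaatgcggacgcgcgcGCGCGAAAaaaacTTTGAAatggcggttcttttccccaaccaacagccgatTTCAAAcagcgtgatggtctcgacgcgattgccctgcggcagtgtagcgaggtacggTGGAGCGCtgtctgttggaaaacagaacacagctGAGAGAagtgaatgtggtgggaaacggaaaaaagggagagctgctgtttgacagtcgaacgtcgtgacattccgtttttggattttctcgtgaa
efl-1: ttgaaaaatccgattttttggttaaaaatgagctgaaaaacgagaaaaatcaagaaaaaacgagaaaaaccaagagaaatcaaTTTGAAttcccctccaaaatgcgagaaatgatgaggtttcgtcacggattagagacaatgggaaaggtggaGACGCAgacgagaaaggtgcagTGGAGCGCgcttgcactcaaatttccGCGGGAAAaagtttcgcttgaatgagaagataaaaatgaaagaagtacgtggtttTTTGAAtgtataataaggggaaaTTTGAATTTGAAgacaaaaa
dpl-1: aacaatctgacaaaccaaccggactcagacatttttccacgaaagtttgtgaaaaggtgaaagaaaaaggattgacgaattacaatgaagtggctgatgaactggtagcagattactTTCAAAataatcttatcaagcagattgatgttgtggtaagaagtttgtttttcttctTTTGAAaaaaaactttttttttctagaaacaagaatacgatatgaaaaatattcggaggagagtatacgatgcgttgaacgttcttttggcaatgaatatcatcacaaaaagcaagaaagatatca

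Upstream of their starts, lin-54, lin-53 and lin-9 carried the strongest sites of the complex. The site of lin-54, the DNA-binding subunit of MuvB that recognises TTTGAA-type elements, had a signal of 1286 and rank 40 in the optimal list, or 20 among nuclear summits. It ranked 54, 19 and 35 in replicates 1, 2 and 3. It lay 336 bp upstream of the first start of lin-54 (chromosome IV, 13241044 to 13243401, plus strand), in a region from 13240517 to 13240858. The same summit lay 57 bp from the start of rpl-12, a gene for a large ribosomal subunit protein on the opposite strand. It stood nearer to rpl-12 and cannot be given to either gene alone.

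The site of lin-53, which encodes an RbAp48-like WD-repeat protein that binds histones and also belongs to other chromatin complexes, had a signal of 1048 and rank 75. Its ranks in replicates 1, 2 and 3 were 85, 49 and 74. The summit stood 236 bp upstream of lin-53 (chromosome I, 9618196 to 9619760, minus strand) and 231 bp from the start of nra-2, a divergent neighbour. The distances to both starts were nearly equal.

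The site of lin-9, a conserved scaffold subunit of MuvB, had a signal of 785 and rank 140. It ranked 151, 141 and 153 in the replicates, the narrowest range of any member. The summit lay 159 bp upstream of lin-9 (chromosome III, 8900237 to 8904131, minus strand), and no other protein-coding promoter window reached it. It was the strongest member site with 1 gene in reach. A promoter window here spans the 1000 bp before and the 200 bp after each annotated transcript start of a gene.

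The site upstream of efl-1, the E2F-type subunit that pairs with DPL-1, was weaker. It had a signal of 373 and rank 729, with ranks of 781, 882 and 860 in the replicates. It lay 170 bp upstream of efl-1 (chromosome V, 16958590 to 16965675, minus strand), and fbxa-90, an F-box gene, had a start 969 bp away. At these 4 sites the summits of all 3 replicates lay within 32 bp of the optimal summit.

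The sites at the starts of lin-52 and lin-35 were at the lower end of the list. For lin-52, a small MuvB subunit (chromosome III, 9824083 to 9824750, minus strand), a summit 92 bp upstream had a signal of 109 and rank 4441, and a second, 200 bp inside the gene in a coding exon, had 107 and rank 4521. The same replicate regions overlapped both, at ranks 2424, 5340 and 3693. They passed into the strongest 4548 of replicates 1 and 3 but not of replicate 2. By summits within 100 bp, replicate 1 alone supported the first site and replicate 3 alone the second. The summit 343 bp upstream of lin-35, the RB-like pocket protein, had a signal of 107 and rank 4524. Regions overlapping it ranked 1458, 1663 and 5861 in replicates 1, 2 and 3. Within 100 bp of this summit, replicates 1 and 2 had no summit of their own, and replicate 3 had the one at rank 5861. The optimal summit lay 75 bp from the start of vps-51, a vesicle tethering gene on the opposite strand.

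**Figure D1:**
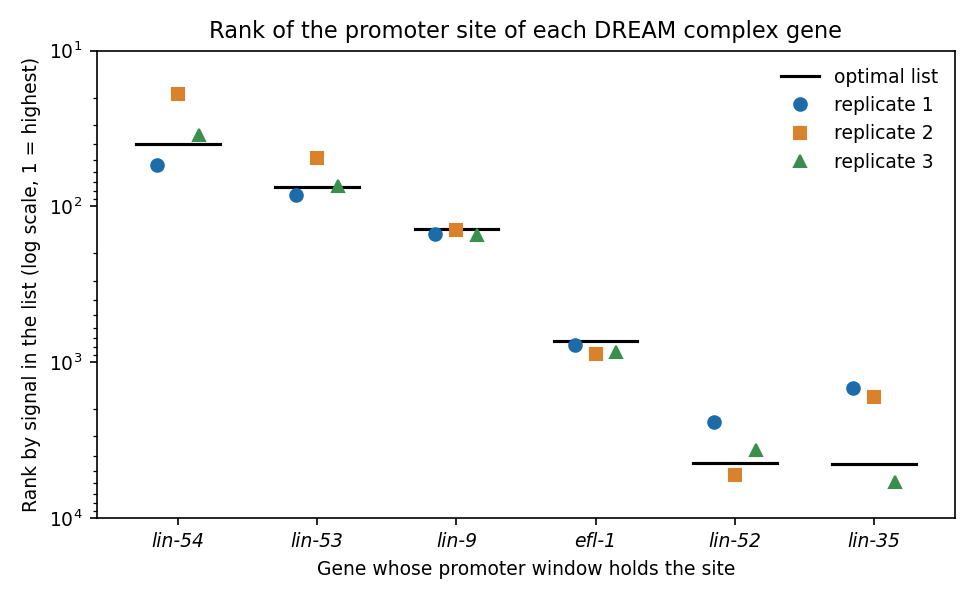
Rank of the strongest promoter site of the 6 DREAM complex genes that have one, on a log axis with the highest rank at the top. The black line is the rank in the optimal list of 4548 regions. The symbols are the ranks of the strongest overlapping region in the lists of replicates 1, 2 and 3, wherever its summit lay. The sites of lin-54, lin-53, lin-9 and efl-1 keep their order in each replicate, while lin-52 and lin-35 overlap.

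The order lin-54, lin-53, lin-9, efl-1, lin-52 held in 3 of 3 replicates, as the plot of promoter ranks shows. The rank ranges of lin-54 and lin-53 overlapped across replicates, though lin-54 ranked above lin-53 within each replicate. Those of lin-53 and lin-9, of lin-9 and efl-1, and of efl-1 and lin-52 did not overlap. The ranges of lin-52 and lin-35 did, and their order held in 1 of 3 replicates.

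In all, 6 of the 8 genes had a summit in a promoter window, where 13.4% of all protein-coding genes did. With the whole gene window the count was 7 of 8, against 15.6%. Longer genes offer longer windows: 11.3% of genes with a window under 2500 bp held a summit, 12.9% of those from 2500 to 3999 bp, 20.4% of those from 4000 to 7999 bp and 29.6% of those of 8000 bp and over. The median window was 3507 bp for the members and 3027 bp for all genes. The strongest promoter site of the 6 genes had a median signal of 579, against 216 for the 2678 genes with a promoter summit. The sites of lin-54, lin-53, efl-1 and lin-35 among them are also in reach of another gene. A promoter site at least as strong as that of lin-9 stood at 104 genes, and this limit by its choice counts lin-9, lin-54 and lin-53. The genes were chosen with earlier results known, so these shares are a description.

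The gene without a site was lin-37, another MuvB subunit (chromosome III, 7070890 to 7072552, minus strand). Its window held 0 summits of the optimal list and 0 of the list called on the pooled replicates. Replicate 1 had 1 region there at rank 15641, replicate 2 had 1 at rank 19399 and replicate 3 had 0, all in the part of the lists that mixes peaks with background. The nearest optimal summit lay 39566 bp from its start. The start of lin-37 follows the end of ZK418.5 on the same strand by 60 bp, and the start of ZK418.5, 1299 bp away, had 0 promoter summits. Annotated starts in this organism can be trans-splice sites, and transcription may begin elsewhere.

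**Figure D2:**
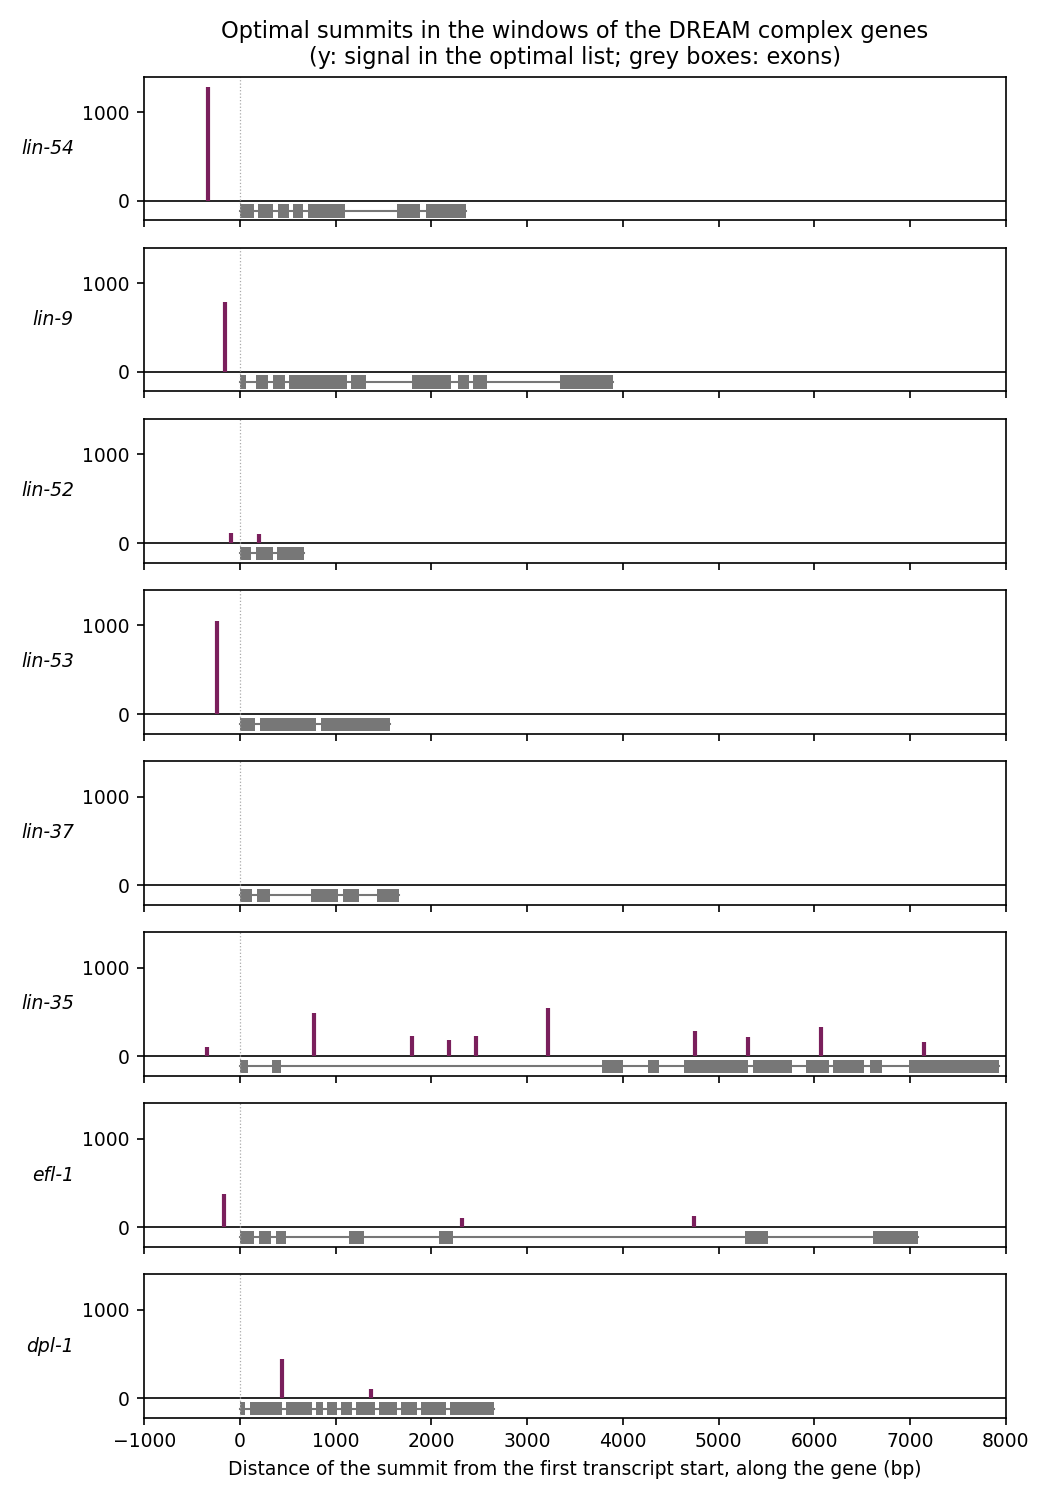
Optimal summits along the 8 genes, drawn from 1000 bp upstream of the first transcript start, with the authors' signal on the vertical axis and exons as grey boxes. Upstream of the start lin-54 reaches 1286, lin-53 1048 and lin-9 785, lin-37 is empty, and lin-35 carries 9 summits inside the gene.

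Inside their transcribed parts, 3 of the genes stood out in another way: lin-35, dpl-1 and efl-1 held exceptionally wide regions of the optimal list. Over the 4458 distinct nuclear regions of the list, the median width was 390 bp and the 99th percentile 677 bp. A limit of 2000 bp, set after the widths had been seen, was passed by 4 regions, or 0.0897%. Of these 4, 3 lay at genes of the complex, and the other, of 2960 bp, lay at fdgt-2 and F14E5.8.

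The widest of all was that of lin-35 (chromosome I, gene from 5807709 to 5815637, plus strand). It ran from 5807612 to 5815433, was 7822 bp wide and covered 97.4% of the gene. Its 9 summits had signals of 542, 487, 334, 289, 231, 227, 219, 185 and 163, the highest at rank 316, in an intron 3222 bp from the start. Of these summits 5 lay in introns and 4 in coding exons, in a gene that is 40.5% exonic. Of the intronic summits, 3 fall in exons of C32F10.4, a gene nested on the opposite strand. With the summit upstream, lin-35 held 10 summits, and 2 of all genes held that many or more. The second was egl-27, a synMuv-related gene of the MTA family that is named below.

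The region was wide in 1 replicate only. Replicate 3 had a single region of 7793 bp with 16 summits inside the gene, beyond its first 200 bp as in all such counts here, among its strongest 4548, the best at rank 30. In replicates 1 and 2 no region at the gene was wider than 376 bp, and 8 summits inside the gene were among the strongest in each, the best at ranks 531 and 919. No other gene had as many strong summits within its body as lin-35 in replicate 3, and 7 and 8 genes, lin-35 included, had at least as many in replicates 1 and 2. In replicates 1, 2 and 3, 4.85, 4.87 and 5.01% of all genes had at least 1. The nested gene C32F10.4 runs from 5808421 to 5810002, and its promoter window reached 3 of the 9 summits, 929, 174 and 106 bp from its start.

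At dpl-1, the DP-type partner of EFL-1 (chromosome II, 9169910 to 9172565, plus strand), a region of 2403 bp, from 9169882 to 9172284, covered 89.4% of the gene. Its summits lay 436 bp inside the gene, with a signal of 439 and rank 520, and 1368 bp inside, with 107 and rank 4518. Both were in coding exons, which together with other exons make up 82.8% of the gene. Here replicate 1 led: it had a region of 2272 bp, a best rank of 193 and 5 strong summits in the gene. The widest regions in replicates 2 and 3 were 376 and 480 bp, their best ranks 915 and 871, and each had 2 strong summits. The whole of dpl-1 lies within T23G7.2 on the opposite strand, where both summits fall in an intron.

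At efl-1 the gene body was led by replicate 2. A region of 2242 bp, from 16963058 to 16965299, had its summit in an intron 2318 bp inside the gene, with a signal of 108 and rank 4492. A narrower region, from 16960744 to 16961088, had a signal of 130 and rank 3573 at 4740 bp. Optimal regions together covered 36.5% of the gene, less than at lin-35 and dpl-1. In replicate 2, 6 summits in the gene body were among the strongest, the best at rank 892, and the widest region was 683 bp, so no replicate's own list held a region there as wide as the optimal one. Replicates 1 and 3 had 0 strong summits in the body and best ranks of 6309 and 5864. Upstream of the same gene the 3 replicates ranked within 781 to 882.

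**Figure D3:**
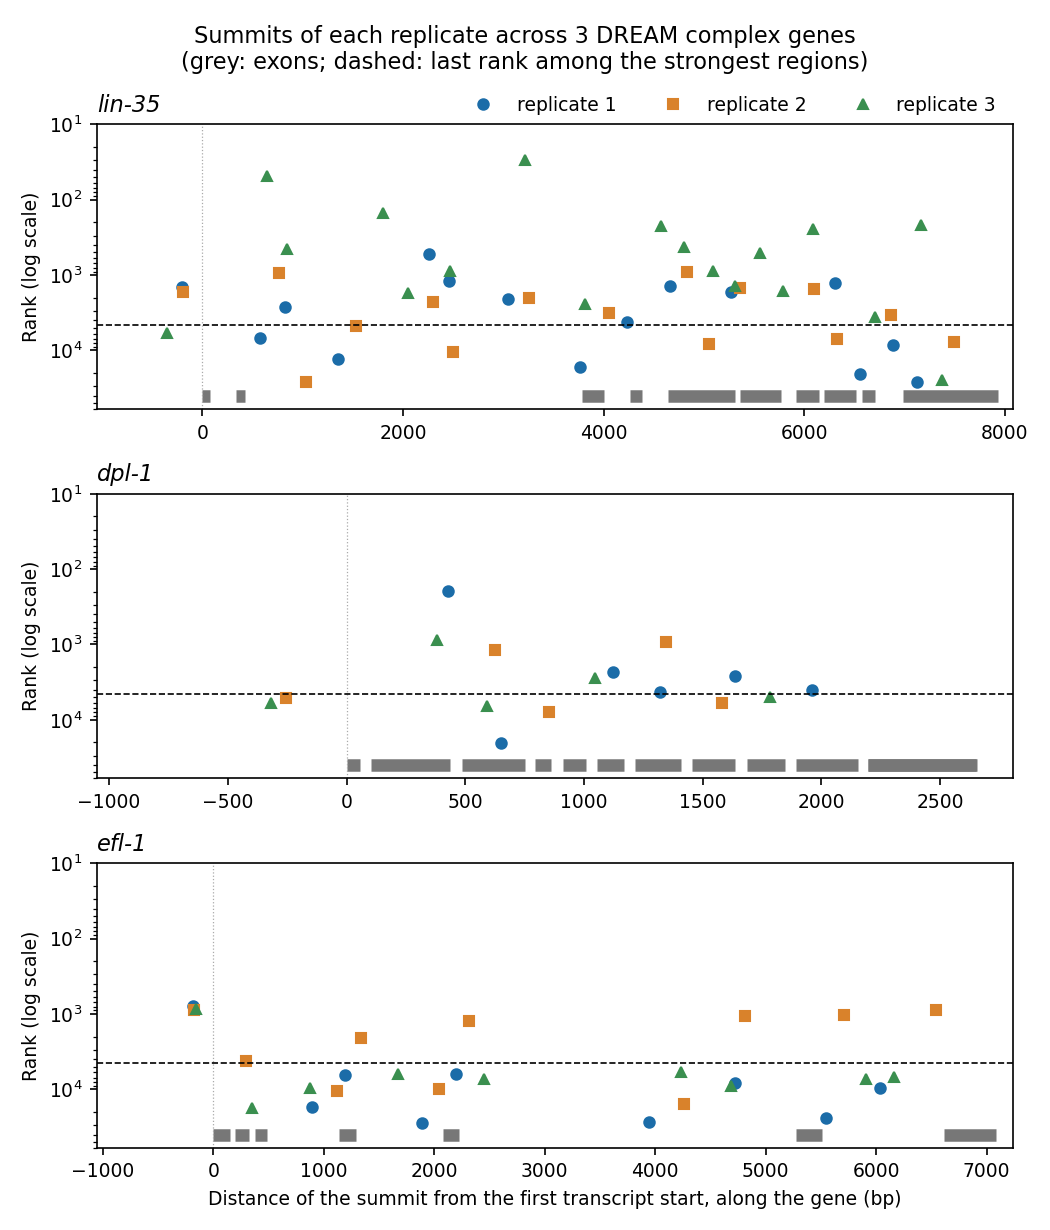
Summits of each replicate's own list along lin-35, dpl-1 and efl-1, with the rank on a log axis (highest at the top), exons in grey and a dashed line at rank 4548. Inside lin-35 the highest points belong to replicate 3, inside dpl-1 to replicate 1 and inside efl-1 to replicate 2, while the upstream points of efl-1 coincide.

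Thus in each of the 3 gene bodies 1 replicate had the best rank, and not the same one. This did not hold at each summit. Within 100 bp of the dpl-1 summit at 1368 bp, replicate 1 ranked 4221 and replicate 2 ranked 915. Within 100 bp of the lin-35 summit at 2187 bp, replicate 1 ranked 531 and replicate 3 had no summit. Beyond the first 200 bp, lin-54, lin-9, lin-52, lin-53 and lin-37 held 0 strong summits in each replicate. In replicate 3, lin-52 had 1 within its first 200 bp, at 197 bp and rank 3693. The next widest regions of the list were at unc-119 (1535 bp), the gene mutated in the strain, and at pie-1 (1421 and 1278 bp). At unc-119 the widest regions of replicates 1, 2 and 3 were 1439, 809 and 1506 bp, so the width was not that of 1 replicate. At fdgt-2 and F14E5.8, the other region over 2000 bp, they were 1167, 1391 and 1085 bp. The part of each library, of its source and of its fragmentation in the width of the regions at lin-35, dpl-1 and efl-1 was not tested. Whether the signal across these 3 gene bodies came from chromatin bound by NHR-25 in these larvae was not tested either, and this bears on the 13 member summits inside these genes and on the count of dpl-1 among the genes with a site. When regions wider than 2000 bp were set aside, an alternative chosen after seeing the data, 8 member summits and 6 of 8 genes remained, dpl-1 being lost, while the share of all genes was 15.6% as before.

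**Figure D4:**
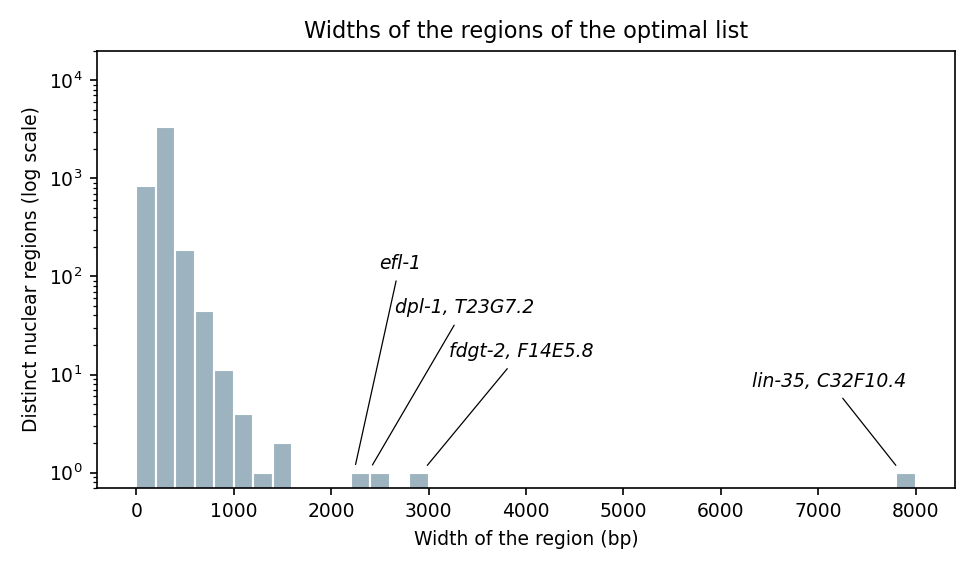
Widths of the 4458 distinct nuclear regions of the optimal list in classes of 200 bp, with the number of regions on a log axis. The 4 regions wider than 2000 bp are named by the genes they touch, and 3 of them touch lin-35, dpl-1 or efl-1.

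Support by replicates depended on how such wide regions were matched. By overlap, 15 of the 20 member sites were supported by all 3 replicates, 3 by 2 and 2 by 1, where 55.3% of nuclear summits were supported by all 3. The 9 summits within lin-35 share 1 region and count as 9 of the 15. With a replicate summit required within 100 bp, 7 sites were supported by all 3, 5 by 2, 7 by 1 and 1 by 0, where 46.7% of nuclear summits were supported by all 3. Those 7 were the promoter sites of lin-54, lin-53, lin-9 and efl-1 and 3 of the summits within lin-35. The site at 774 bp in lin-35, for example, ranked 2646, 931 and 449 in replicates 1, 2 and 3 by this measure. The site supported by 0 was that upstream of lin-35.

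Of the 20 member sites, 10 lay in the promoter window of at least 1 gene, and 4 of these were in reach of more than 1. Of all 4524 nuclear summits, 2351 lay in a promoter window, a share close to that of the member sites. Of these 2351, 557 (23.7%) were in reach of more than 1 gene. The 4 shared sites were those upstream of lin-54 (rpl-12), lin-53 (nra-2), efl-1 (fbxa-90) and lin-35 (vps-51). A further 3 sites, within lin-35, were reached by the window of C32F10.4 alone, so that another gene's promoter reached 7 of the 20 sites in all. Those of lin-9, lin-52 and dpl-1 were reached by no other.

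The printed windows differ in what they hold. TGGAGCGC stood in those of lin-54, lin-9 and efl-1, each time on the plus strand and 10.5, 25.5 and 29.5 bp from the summit, counted from the centre of the match. The plus strand is that of the assembly: lin-54 lies on it, while lin-9 and efl-1 lie on the minus strand. In windows of 300 bp TGGAGCGC was found at 2.39% of all nuclear summits, and at 1.3% of the 19973 promoter windows from 250 bp before to 50 bp after the first start. It stood at 3 of the 20 member summits, and that of lin-53 was not among them. These letters were noticed in the sequences first and then counted, so the count is a description.

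An E2F-type form lay at 5 of the 20 member summits: the leading sites of lin-54, lin-53, lin-9 and efl-1 and the second site of dpl-1. The share was 7.52% of all nuclear summits and 4.69% of promoters, and it was 8.6% among summits of rank up to 1000. The form TTTCGCGC stood at lin-54 and lin-9, 51.5 and 82.5 bp from the summit, and TTTCCCGC at lin-53 and efl-1, 95.5 and 55.5 bp from it. In a window of 100 bp centred on the summit, which reaches 50 bp to each side, only the match of TTTGGCGC at dpl-1 was left. At the 4 upstream sites the E2F-type forms stood more than 50 bp from the summit.

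TTTGAA was present at 13 of 20 member summits, against 50.4% of all summits and 62.5% of promoters. The nearest match to a summit at the leading sites was 8.5 bp away at lin-54, 32.5 bp at lin-9, 43.5 bp at lin-53 and 64.5 bp at efl-1, and dpl-1 had matches 30.5 and 26.5 bp to either side. GACGCA was present at 2 member summits, of lin-54 and efl-1, at 42.5 and 6.5 bp, against 20.9% of all summits and 8.78% of promoters.

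The half-site AGGTCA occurred at 1 member summit, in lin-35, against 15.2% of all summits and 8.27% of promoters. Its extended form occurred at 0, against 0.973% and 0.225%. The repeat GAGAGA occurred at 5 member summits, 1 at lin-9 and 4 in the lin-35 window, against 44.9% and 21.8%, and CACGTG at 1, in lin-35, against 11.6% and 5.82%. The GC content was 36.7% at lin-54, 47.3% at lin-9, 39.0% at lin-53, 37.0% at efl-1 and 32.7% at the leading site of dpl-1, with medians of 36.2% over member summits and 38.5% over all.

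Genes of pathways linked to DREAM were counted in the same windows, from 3 lists whose genes all matched. Of 17 synMuv B genes and chromatin partners, 7 (41.2%) had a summit in the gene window and the same number in a promoter window. The highest signal was 376, at rank 718, in an intron of egl-27, which had 10 summits. Its ranks in the replicates were 434, 1388 and 678. The zinc finger gene lin-36 had a site of 285 that lay 225 bp upstream, at ranks 1282, 2113 and 1200. The site of lin-13, another zinc finger gene of the class, had 267 and lay 761 bp upstream, and that of dcp-66, a p66-type subunit gene of the NuRD complex, had 231 and lay 154 bp upstream. Sites were also present at lin-40, mep-1 and met-2, and none was found at lin-15B, lin-61, hpl-2, lin-65, tam-1, let-418, hda-1, chd-3, rba-1 and chaf-1.

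Of 16 genes of the RB and E2F cell cycle pathway, 6 (37.5%) had a summit in the gene window and 5 (31.2%) in a promoter window. The cyclin E gene cye-1 had the highest signal, 330, at 515 bp upstream, in reach of pqn-21 as well, and ranked 951, 833 and 1248 in the replicates. The F-box gene lin-23 had 326 at 920 bp upstream, with ranks of 1520, 431 and 1652. The B-type cyclin gene cyb-1 had 248, shared with orc-5, and the cyclin D gene cyd-1 had 163, in an intron 11169 bp from the first start. Weaker sites stood at fzr-1 and at cdk-4, the kinase partner of cyclin D, each supported by 1 replicate. No summit was found at cdk-2, cki-1, cki-2, cul-1, efl-2, efl-3, cdc-25.1, cdc-25.2, cdk-1 or cyb-3.

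The third list held germline genes that DREAM keeps off in the soma, and the activators of such genes. Of these 9 genes, 2 (22.2%) had a site. The PHD finger gene zfp-1 had 7 summits, the strongest of 1009 at rank 83 in an intron 10594 bp from its first start, at ranks 53, 62 and 97 in the replicates. The chromodomain gene mrg-1 had a site of 411 that lay 218 bp upstream, shared with spcs-2, at ranks 795, 745 and 534. No summit was found at the P granule genes pgl-1, pgl-3, glh-1 and deps-1, nor at mes-4, isw-1 and gfl-1. Beside these lists stand the 15.6% of all genes with a summit in the gene window, the 13.4% with one in a promoter window and the 7 of 8 DREAM genes. The lists were not matched for window length, and 29.6% of genes with a window of 8000 bp and over held a summit. The highest signals of lin-54 and lin-53, at sites also in reach of rpl-12 and nra-2, were above those of each gene of the 3 lists. The site of lin-9, with no other gene in reach, had 785, below that of zfp-1.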

How the data were processed

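The authors called regions bound by tagged NHR-25 in 3 replicates of L2 larvae, against a control not analysed here, on ce11 and ce10, per the labels and the note deposited with the files. Which aligner and caller they used is not given in the sources used here. Deposited lists give each region a signal of unstated scaling, which was used here to rank regions within a list, and a summit as an offset from the start. They also give a −log10 q-value, which was not used for ranking: in the deposited optimal list 3849 of 4548 regions share the highest value, 15 of the 20 member summits among them.

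Coordinates are 1-based on ce11. Gene models were those of Ensembl release 115 and sequences those of RefSeq for the same assembly. The ce10 lists were not used. The 24 mitochondrial regions stayed in ranks and left all gene counts. Scripts ran in Python 3.11.15 and were tested on simulated regions. The genes, the pathway lists and the motifs were chosen with earlier results of these data known, so no test was run on them. Named were the 8 genes, all neighbours whose promoter window held a summit of theirs, and up to 4 bound genes of highest signal per pathway list with all others by name. Genes of the wide regions were named after their values were seen. Alternatives were other windows, the 2274 strongest regions, other matching of replicates, leaving out each replicate (keeping the sites that both remaining replicates supported) and motif windows of 100 bp.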

Additional observations from a re-analysis of the deposited data

How the results depend on the processing

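The count of member genes with a summit in the gene window was 7, and it was 6 or 7 under the alternatives set out at the start and 5 or 6 under those added after seeing the data (regions wider than 2000 bp set aside, and replicates matched by summits within 100 bp). Without replicate 1 or 3, and in the 2274 strongest regions, lin-52 was lost, and in the promoter window dpl-1. With summits within 100 bp required, lin-52 was lost whichever replicate was left out, and dpl-1 was lost as well without replicate 1. The count of 20 member summits was 7 in promoter windows, 13 in the 2274 strongest regions, 8 without regions wider than 2000 bp, 15 to 17 without each replicate, and 8 to 9 when the remaining replicates also had to have a summit within 100 bp. The 15.6% of all genes became 13.5% and 19% with 500 and 2000 bp upstream, 13.4% with promoter windows, 9.16% in the 2274 strongest regions, 17% with any base of the region in the window, 10.6 to 11% without each replicate, and 9.79, 10.3 and 10.4% with summits within 100 bp as well. The sites without a replicate were those of the full optimal list, made from all 3 replicates, that both remaining replicates supported. The main counts of summits and genes had no such requirement. These shifts therefore cannot separate the loss of a replicate from a stricter filter. Of the 15 member sites supported by all replicates, 3 were left with an overlap of at least 50% of both regions and 7 with summits within 100 bp. Sites with a neighbouring promoter numbered 5 and 9 with 500 and 2000 bp, against 7. In a window of 100 bp in total, centred on the summit and so holding fewer bases, matches fell to 7 for TTTGAA and 1 for the E2F-type forms. They fell to 0 each for the half-site, the GAGA repeat and the E-box. GACGCA kept 2 matches, and TGGAGCGC, an addition after seeing the data, kept 3. The cause of the other shifts was not tested. No paired analysis was possible because the 3 replicates form 1 group and no result comes from a test. Depth is unknown, and all replicates are of 1 strain and stage. Sites of low rank such as those of lin-52 rest on 2 replicates by overlap, and those of lin-52 on 1 replicate each by summits within 100 bp.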
